A study of Mus musculus with 3 samples.

Results

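*Krt79*, *Defb6*, *Plet1*, *Lrig1* and *Cst6* are genes of the upper hair follicle (HF) and infundibulum, and were taken by name from the single-cell count matrices of mouse dorsal skin. All 5 were listed, among 19927 gene symbols in all. Counts were made by droplet sequencing, in which the RNA of a cell is tagged with a barcode before amplification, from dorsal skin of P18 mice digested with trypsin. Controls 1 and 2 carried *Vdr* flox/flox, that is, loxP sites on both copies of the vitamin D receptor gene and no Cre. The third library, labelled as a *Vdr* conditional knockout (*Vdr* cKO) and called the cKO-labelled library here, carried *Vdr* flox/flox; Krt14cre, where a keratin 14 promoter drives Cre in basal keratinocytes and HF epithelium. Each library was pooled from male mice, so that no animal can be told from another. Each library is thus 1 sample, there is no replicate of the *Vdr* cKO genotype and no test was run. The values below describe these libraries, and the gap between both controls is the only measure of how far libraries of 1 genotype lie apart.

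The infundibulum is the funnel that joins the HF to the skin surface, and below it lie the junctional zone, where the sebaceous gland duct enters, and the isthmus. *Krt79* encodes a type II keratin of the cells that line the canal of the upper follicle and the sebaceous duct, and *Defb6* a small secreted antimicrobial peptide of the beta-defensin family. *Plet1* encodes a surface glycoprotein of upper isthmus cells, *Lrig1* a membrane protein that lowers signalling by epidermal growth factor receptors and marks junctional zone stem cells, and *Cst6* cystatin M/E, an inhibitor of cysteine proteases such as legumain and cathepsin L. *Cst6* is also made by the upper layers of the interfollicular epidermis, so its counts do not come from the HF alone.

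In GRCm38, *Krt79* lies on chromosome 15 at 101929332 to 101940324 on the minus strand, in 9 exons. *Defb6* lies on chromosome 8 at 19225478 to 19228209 on the plus strand, in 2 exons. *Plet1* lies on chromosome 9 at 50494525 to 50505482 on the plus strand, in 4 exons. *Lrig1* lies on chromosome 6 at 94604529 to 94700158 on the minus strand, in 20 exons. *Cst6* lies on chromosome 19 at 5344705 to 5349574 on the minus strand, in 3 exons. All are protein-coding, and they share no chromosome, so none of the values below can come from reads that overlap a neighbouring member.

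The promoters of the 3 members that were over 2-fold higher in the cKO-labelled library are shown first, as the sequence that these genes have or do not have in common. Each runs from 250 bases before the RefSeq start site through the first 50 transcribed bases, 5′ to 3′ on the gene's own strand, in GRCm38.p6. *Krt79* is at chr15:101940275-101940574 (minus strand), *Defb6* at chr8:19225228-19225527 (plus strand) and *Plet1* at chr9:50494275-50494574 (plus strand). Capitals mark matches on either strand. The VDR half-site was searched as AGGTCA. The site of GATA factors was searched as AGATAA and, as an alternative form, as TGATAA. The boxes searched were CACCC, known from Krüppel-like factors, and the TATA box as TATAAA. Adjacent matches run together in capitals.
Krt79: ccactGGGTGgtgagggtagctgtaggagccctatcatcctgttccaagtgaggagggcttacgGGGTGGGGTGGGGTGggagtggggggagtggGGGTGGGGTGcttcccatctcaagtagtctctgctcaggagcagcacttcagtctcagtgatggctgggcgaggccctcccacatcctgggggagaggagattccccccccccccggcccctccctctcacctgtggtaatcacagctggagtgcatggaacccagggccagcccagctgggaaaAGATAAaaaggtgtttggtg
Defb6: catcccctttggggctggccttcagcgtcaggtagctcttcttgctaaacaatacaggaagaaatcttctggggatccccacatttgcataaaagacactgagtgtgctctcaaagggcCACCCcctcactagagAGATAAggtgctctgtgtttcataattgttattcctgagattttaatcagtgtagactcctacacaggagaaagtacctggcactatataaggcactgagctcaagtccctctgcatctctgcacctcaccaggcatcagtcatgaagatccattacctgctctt
Plet1: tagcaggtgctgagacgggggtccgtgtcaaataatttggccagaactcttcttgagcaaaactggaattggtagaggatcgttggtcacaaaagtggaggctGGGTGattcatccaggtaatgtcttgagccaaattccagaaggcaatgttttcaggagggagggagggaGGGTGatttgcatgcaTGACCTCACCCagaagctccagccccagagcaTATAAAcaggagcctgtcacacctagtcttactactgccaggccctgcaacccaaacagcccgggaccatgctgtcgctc

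No searched motif other than CACCC was found in all 3 windows. The *Krt79* window held 6 CACCC matches, *Plet1* 3 and *Defb6* 1, and 57.7% of 32544 RefSeq promoters of the same length hold at least 1. A GATA match stood in *Krt79*, within the first transcribed bases, and in *Defb6*, at 115 bases before the start, and 18.5% of promoters hold one. The AGGTCA half-site was found in *Plet1* alone, at 62 bases before the start, and 16.2% of promoters hold one. *Plet1* also held a TATAAA box at 30 bases before the start, which 13.6% of promoters have. An AP-1 site, searched as TGAGTCA on either strand, which 5.19% of promoters hold, was not in any of these windows. In the *Lrig1* promoter, which is not printed, the only match was a single CACCC. These matches describe letters and not binding.

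A barcode was taken as a cell if it held 200 or more detected genes and no more than 20% mitochondrial counts. They numbered 1480, 1658 and 2622 in controls 1 and 2 and the cKO-labelled library, with 18802408, 28690129 and 30954897 counts. The median cell of the cKO-labelled library had 688.5 detected genes, against 377 and 502 in controls 1 and 2, at a median of 4055 counts against 4190 and 4492.5. Of the kept barcodes, 27, 28 and 20 were also among the deposited barcodes of another library, kept there or not. *Vdr* itself was at 40.7 and 35.9 CPM (counts scaled to 1000000 counts of a library's cells) in the controls and 80.8 CPM in the cKO-labelled library, so its level does not go with that label. The Cre removes an exon, and counts from the rest of the transcript do not test for it. The label is therefore given as a label throughout.

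In the cKO-labelled library, *Krt79*, *Defb6* and *Plet1* were over 2-fold above both controls, *Cst6* was above both but under 2-fold above control 2, and *Lrig1* was highest by a small margin. Levels are CPM pooled over all cells of a library. Brackets hold exact 95% Poisson intervals, which cover counting error only and are too narrow where amplification copied a molecule more than once. Folds and log2 differences were taken after adding 1 CPM to each level.

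*Krt79* had levels of 283 CPM (275 to 290) for control 1, 257 CPM (251 to 263) for control 2 and 765 CPM (756 to 775) for the cKO-labelled library. The controls lay close together and far below it. The level in the cKO-labelled library was 2.70-fold that of control 1 and 2.97-fold that of control 2, or 1.50 on the log2 scale over the control mean, where the controls differed by 0.14. It did not stay over 2-fold above both controls without the 5% of cells with the most counts (log2 difference 1.21), with each gene counted once per cell (0.62) or as the mean of the CPM of each cell (0.95), and the cause was not tested.

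*Defb6* had levels of 35.7 CPM (33.0 to 38.5) for control 1, 84.5 CPM (81.1 to 87.9) for control 2 and 445 CPM (437 to 452) for the cKO-labelled library. It thus differed 12.1-fold from control 1 but 5.22-fold from control 2. The log2 difference from the control mean was 2.87, the greatest of the 5, and control 2 lay 1.22 above control 1.

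*Plet1* had levels of 4.20 CPM (3.33 to 5.24) for control 1, 15.2 CPM (13.8 to 16.7) for control 2 and 55.7 CPM (53.1 to 58.4) for the cKO-labelled library. The controls did not overlap, and lay 1.64 apart on the log2 scale, the widest gap between controls of any member. Both were well below the cKO-labelled library, by 10.9-fold and 3.50-fold, and the log2 difference from their mean was 2.40. It was not over 2-fold above both as the mean of the CPM of each cell.

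*Cst6* had levels of 906 CPM (893 to 920) for control 1, 2025 CPM (2009 to 2042) for control 2 and 3227 CPM (3207 to 3247) for the cKO-labelled library. The step from control 1 to control 2, 1.16 on the log2 scale, was as wide as the difference of the cKO-labelled library from the control mean, 1.14. Its 3.56-fold difference from control 1 was thus 1.59-fold from control 2, less than the step between the controls. Counted once per cell, its log2 difference was -0.034.

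*Lrig1* had levels of 20.5 CPM (18.5 to 22.6) for control 1, 19.9 CPM (18.3 to 21.6) for control 2 and 30.1 CPM (28.2 to 32.1) for the cKO-labelled library. The intervals of the controls overlapped each other and not that of the cKO-labelled library. The difference was 1.45-fold and 1.49-fold, or 0.55 on the log2 scale over the control mean, and among genes of at least 10 CPM in a library the median difference was itself 0.14.

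**Figure D1:**
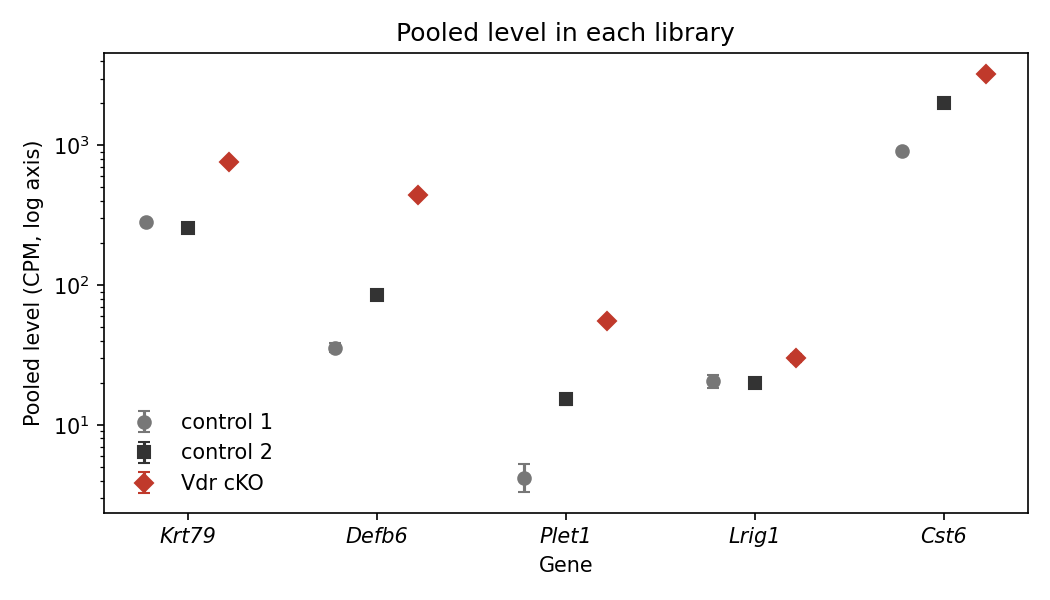
Pooled level of each member in CPM (log axis) in control 1, control 2 and the cKO-labelled library. Points are library values and bars exact 95% Poisson intervals, mostly smaller than the points. All 5 genes are highest in the cKO-labelled library, and *Defb6*, *Plet1* and *Cst6* also differ between the controls.

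Set against all genes, of the 4 members with at least 50 CPM somewhere 3 were over 2-fold above both controls, where 152 of 3919 genes, or 3.88%, were. *Plet1* reached 50 CPM only in the cKO-labelled library, so it had to be highest there to be counted, and *Lrig1* did not reach it anywhere. No member was over 2-fold below both, where 1.15% of genes were. Between the controls, 1.79% of the same genes were over 2-fold higher in control 2, *Defb6*, *Plet1* and *Cst6* among them, and 3.7% over 2-fold higher in control 1. The median of all genes was 0.00 on the log2 scale over the control mean, and the median gap between controls 0.28 without regard to sign. Of the genes tested, 0.434% stood as far above their nearer control as *Defb6*, 1.25% as far as *Plet1*, 2.04% as far as *Krt79* and 7.27% as far as *Cst6*. With library factors from edgeR or DESeq2 in place of the total, the median gene shifted by -0.19 or -0.22, and the share of higher among called genes went from 77.2% to 55.4% or 51.0%. *Krt79*, *Defb6* and *Plet1* were over 2-fold above both controls with either.

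**Figure D2:**
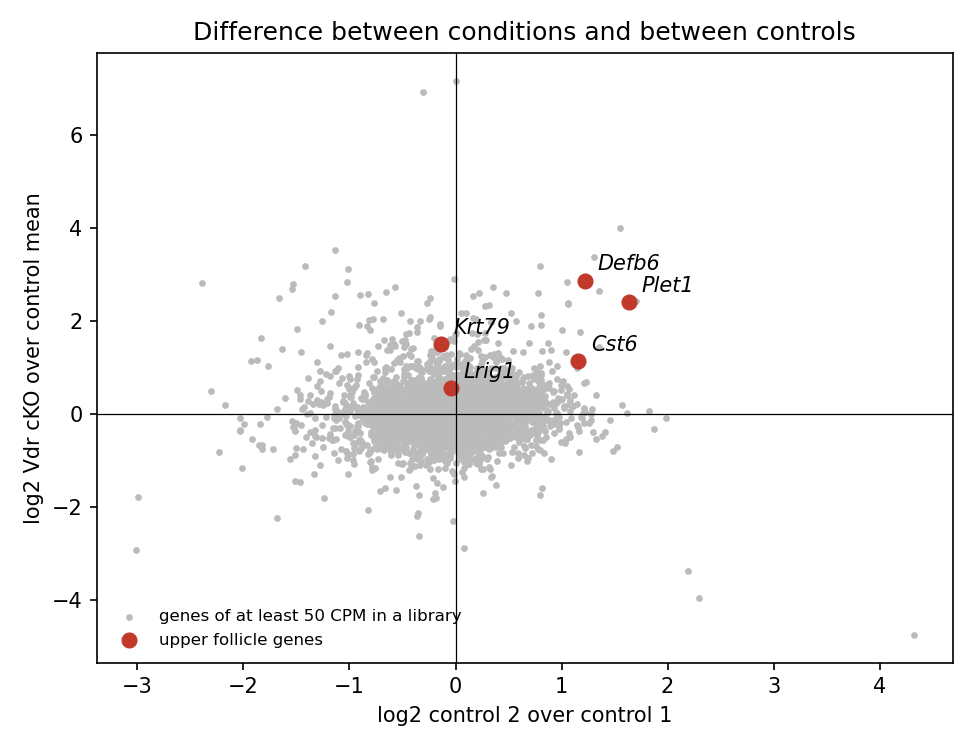
Log2 level in the cKO-labelled library over the control mean (vertical axis) against log2 of control 2 over control 1 (horizontal axis), with 1 CPM added. Grey points are the 3919 genes of at least 50 CPM in a library and red points the 5 members. *Krt79* and *Lrig1* lie near 0 between the controls, whereas *Defb6*, *Plet1* and *Cst6* lie over 1 to the right.

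The 5 genes were also found in a larger share of cells in the cKO-labelled library, as were most genes. To compare cells at the same number of counts, each cell was reduced to 1000 randomly drawn counts (thinned), and 14, 61 and 60 cells with fewer than that were not used. This evens out counts and may not even out molecules: thinned cells still held a median of 265, 309 and 393 detected genes, and counts may include copies made by PCR. Of the 3919 genes tested, 67.2% had a thinned share above both controls in the cKO-labelled library. The median gene had a share 1.28-fold that of the control mean, and 1.26-fold among 614 genes whose level lay within 0.1 of the control mean on the log2 scale. The median gene had a mean count, in the cells with any, of 0.516 times that of control 1 and 0.590 times that of control 2. The share of *Krt79* was 2.42-fold, of *Defb6* 4.37-fold, of *Plet1* 4.16-fold, of *Lrig1* 3.57-fold and of *Cst6* 1.57-fold that of the control mean, and 5.03%, 1.30%, 1.51%, 1.91% and 26.1% of genes tested had a ratio as large. That of *Cst6* was thus within what many genes showed.

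*Krt79* was then found in 15.0% (13.2 to 16.9, exact Clopper-Pearson interval) of cells in control 1, 11.6% (10.1 to 13.3) in control 2 and 32.2% (30.4 to 34.0) in the cKO-labelled library. Without thinning these shares were 22.7%, 21.3% and 51.5%. In a cell that had *Krt79* at all, the mean was 15.8, 20.9 and 17.5 counts, so the cKO-labelled library lay between the controls. Its ratios of 1.11 and 0.841 to controls 1 and 2 were above those of the median gene.

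*Defb6* was found in 4.91% (3.86 to 6.15) and 7.26% (6.04 to 8.65) of thinned control cells and 26.6% (24.9 to 28.3) of those in the cKO-labelled library, and in 8.99%, 14.8% and 47.9% of unthinned cells. Its mean in such cells was 5.05, 9.89 and 11.0 counts, 2.17 and 1.11 times those of controls 1 and 2. Of all *Defb6* counts, 30.3%, 57.5% and 17.1% lay in 10 of the 133, 245 and 1256 cells with a count. *Plet1* was found in 0.682% (0.328 to 1.25) and 0.689% (0.344 to 1.23) of thinned control cells, and in 2.85% of those in the cKO-labelled library. The control shares rest on 10 and 11 cells, too few to show that they are alike. Unthinned, it was in 18, 41 and 218 cells, or 1.22%, 2.47% and 8.31%.

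*Lrig1* was found in 0.546%, 0.877% and 2.54% of thinned cells, a larger difference than that in its level. The means per cell with a count went the other way, at 15.4, 10.4 and 4.63, and their ratios of 0.301 and 0.447 were below those of the median gene. Of its counts, 90.6% in control 1 and 65.3% in control 2 lay in 10 cells, against 27.6% in the cKO-labelled library. Unthinned, *Lrig1* was in 25, 55 and 201 cells, so 10 cells are a larger part of them in the controls. A few cells thus set the control level of *Lrig1*, and those of *Plet1*, where 83.5% and 74.1% lay in 10 cells, were as uneven. *Cst6* was found in 35.7%, 52.3% and 69.0% of thinned cells, and the mean was 22.3, 49.1 and 43.3 counts in a cell with any.

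**Figure D3:**
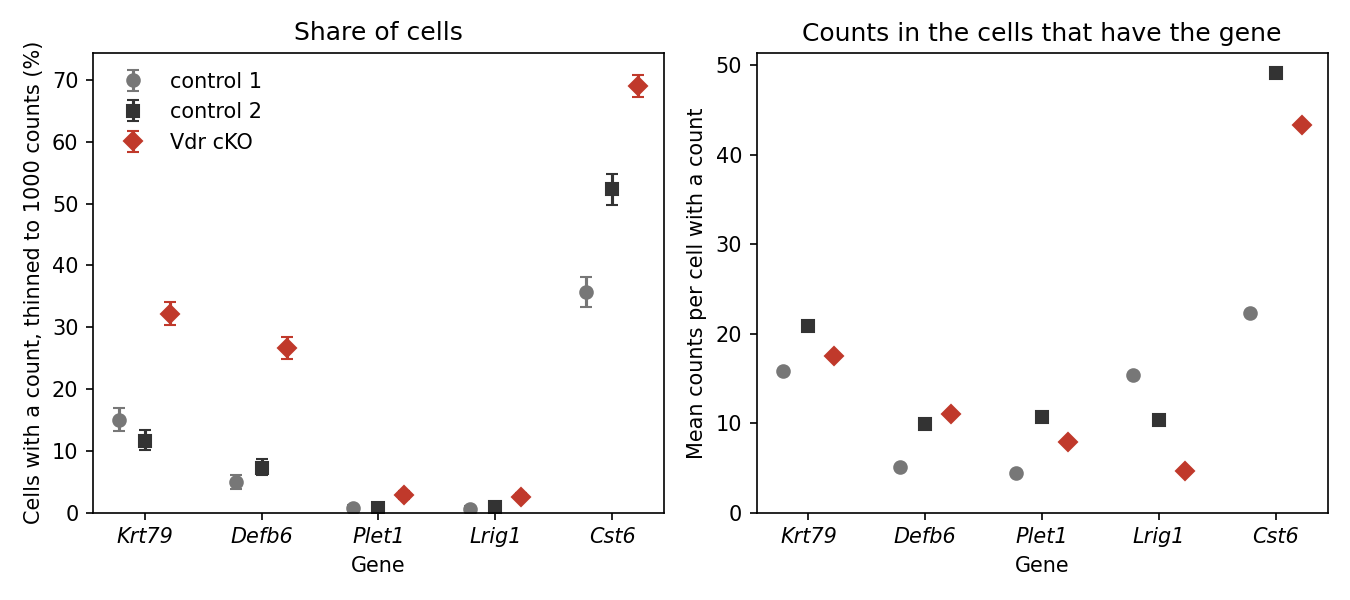
Left, share of cells with a count of each member after thinning to 1000 counts, with exact 95% Clopper-Pearson intervals; right, mean counts per cell that had the gene, without thinning and with no error given. The shares are highest in the cKO-labelled library for all 5 genes, whereas the means per cell are not, except for *Defb6*.

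Cells with 3 or more detected antigen-presenting cell genes (*Cd74*, *H2-Aa*, *H2-Ab1*, *H2-Eb1*, *Cd207*, *Tyrobp* and *Fcer1g*) should lack these transcripts. What they hold of them may be RNA picked up from other cells or barcodes of more than 1 cell, which was not tested. These cells numbered 5, 18 and 39. In the cKO-labelled library, *Krt79* was found in 30.8% (17.0 to 47.6) of them after thinning, against 32.2% of the others, with median depths of 8934 and 4009 counts before it. *Cst6* was found in 51.3% (34.8 to 67.6) against 69.3%, *Defb6* in 12.8% (4.30 to 27.4) against 26.8%, *Plet1* in 1 of the 39 cells and *Lrig1* in 0, which allows a share of up to 9.03%. In control 2, 22.2% of such cells had *Krt79* and 72.2% had *Cst6*, against 11.5% and 52.1%. In control 1, 1 of the 5 cells had *Krt79* and 1 had *Cst6*, each 20.0% (0.505 to 71.6), too few cells to compare. The share of cells with *Krt79* was therefore not shown to be above that of this group in any library, nor was that of *Cst6*. Neither is read as a share of cells that express the gene. For *Cst6* and *Defb6* the intervals of both groups in the cKO-labelled library overlapped, since those of the others began at 67.5% and 25.1%. Overlapping intervals do not show that shares are alike, and those of *Cst6* met only between 67.5% and 67.6%. Pooled levels in these cells of the cKO-labelled library were 628 CPM for *Krt79* and 176 CPM for *Defb6*, against 771 and 456 CPM outside.

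The number of *Krt79* counts for each *Defb6* count varied between groups of cells. In the cKO-labelled library it was 1.72 over all cells, 1.50 in cells with 3 or more other upper follicle genes, 2.18 in cells with 3 or more sebaceous genes, 3.56 in the antigen-presenting group and 7.50 in 17 cells with inner root sheath genes. The ratio was 2.35 in barcodes not kept. In control 1 it was 7.92 over all cells and 32.7 in the sebaceous group, and in control 2 3.04 and 14.5.

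The pooled level of *Krt79* in the cKO-labelled library was far above both controls outside the cells with 3 or more sebaceous genes and between the controls within them, whereas the share of cells with *Krt79* was highest in that library in either group. Cells with 3 or more of *Scd1*, *Mgst1*, *Cidea*, *Fa2h*, *Cers4*, *Elovl3*, *Awat1* and *Plin2*, genes of lipid synthesis and storage in the sebaceous gland, numbered 176, 97 and 289, or 11.9%, 5.85% and 11.0%. Within them *Krt79* had levels of 982 CPM (945 to 1019) for control 1, 1241 CPM (1202 to 1280) for control 2 and 1039 CPM (1016 to 1062) for the cKO-labelled library, so the cKO-labelled library lay between the controls. In the other cells it was at 161 CPM (154 to 167), 135 CPM (130 to 140) and 677 CPM (666 to 687), and both controls were far below. After thinning, *Krt79* was found in 27.8%, 37.5% and 50.9% of the sebaceous group and in 13.3%, 9.99% and 29.8% of the other cells, with intervals that did not overlap in any library.

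As a result, 51.6% and 53.2% of all *Krt79* counts in the controls lay in these cells, against 33.2% in the cKO-labelled library. Over all cells, 10 cells alone held 35.3% and 44.7% of *Krt79* counts in controls 1 and 2, against 13.8% in the cKO-labelled library. *Krt79* was in 336, 353 and 1350 cells, so 10 cells are a larger part of them in the controls. The control values may thus rest on few cells, and whether those 10 cells lay inside was not examined. The level inside was 6.11-fold and 9.19-fold that outside in the controls, and 1.54-fold in the cKO-labelled library. On the log2 scale, the difference over the control mean was -0.10 inside and 2.19 outside. The inside value depended on where the line was drawn, from 0.72 with 2 genes, where 868 CPM stood above both the 444 and the 610 CPM of the controls, to -0.68 with 4, and was -0.54 when the genes were counted after thinning, whereas the outside value ran from 1.51 to 3.13 over 6 alternatives. The comparison of *Krt79* inside and outside this gate and its alternatives were chosen after seeing the data. A cell with more counts reaches 3 genes more easily, and the median depth inside and outside was 6212 and 3966 counts in control 1, 9119 and 4267 in control 2, and 7286 and 3788 in the cKO-labelled library. At equal counts, cells of the cKO-labelled library also held more detected genes, a median of 393 against 265 and 309 after thinning. The same gate may thus take in other cells more easily there, and its effect on the levels inside and outside was not tested.

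For no other member did the cKO-labelled library lie between the controls inside. *Defb6* was at 30.0, 85.6 and 477 CPM inside and 36.7, 84.3 and 434 CPM outside, so the cKO-labelled library was far above both controls in either group. *Plet1* was at 4.29, 2.22 and 61.7 CPM inside and 4.19, 16.8 and 53.7 CPM outside. *Cst6* was lower inside than outside in each library, at 722, 1275 and 2771 CPM against 938, 2118 and 3375 CPM. *Lrig1* was at 5.36, 11.1 and 27.0 CPM inside and 23.1, 21.0 and 31.1 CPM outside.

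**Figure D4:**
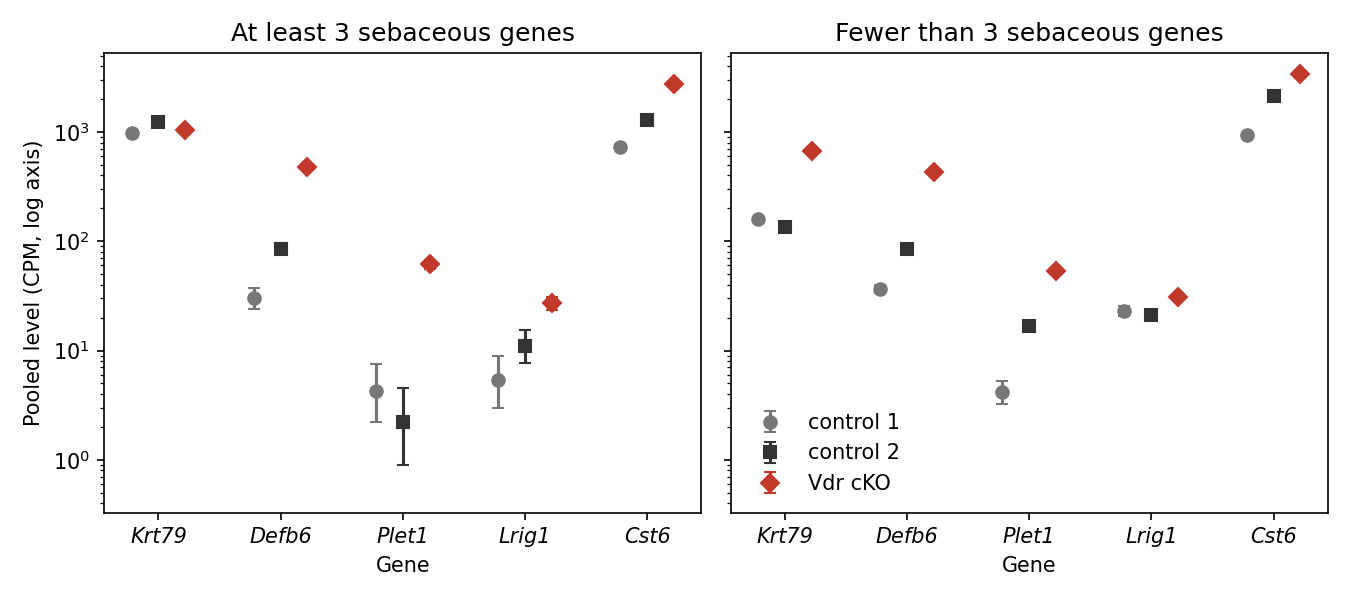
Pooled level of each member in CPM (log axis), with exact 95% Poisson intervals, in cells with at least 3 sebaceous genes (left) and in all other cells (right). *Krt79* lies at 982 to 1241 CPM in all 3 libraries on the left, and on the right it is at 677 CPM in the cKO-labelled library against 161 and 135 CPM.

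*Krt79* and *Defb6* were found together in more cells than their shares and depth would give, in each library, though in control 1 not with every filter on cells. The number expected was computed in 10 groups of cells of similar depth, as if the detection of one gene said nothing of the other, after thinning. For *Krt79* and *Defb6* it was 11.9 cells in control 1, where 21 were seen, 15.4 in control 2, where 25 were seen, and 220 in the cKO-labelled library, where 292 were. The ratios were 1.77 (1.10 to 2.71), 1.62 (1.05 to 2.39) and 1.33 (1.18 to 1.49), and their intervals overlapped. Among cells with at least 500 detected genes the ratio in control 1 was near 1. Without thinning the ratio in the cKO-labelled library was smaller.

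Pairs with *Cst6* had ratios nearer to 1, which does not show a weaker link. A gene found in many cells leaves little room above 1, and *Cst6* was in 69.0% of thinned cells of the cKO-labelled library. Of the *Defb6* cells there, 81.5% had *Cst6* and 42.9% had *Krt79*. *Krt79* with *Cst6* had ratios of 1.05 (0.838 to 1.30), 1.18 (0.977 to 1.42) and 1.09 (1.01 to 1.18), and *Defb6* with *Cst6* 1.08 (0.717 to 1.56), 1.20 (0.939 to 1.51) and 1.17 (1.08 to 1.27). All 3 genes together were in 11, 20 and 255 cells, against 4.36, 7.97 and 154 expected. *Plet1* was with *Krt79* in 32 cells of the cKO-labelled library, against 23.2 expected, a ratio of 1.38 (0.942 to 1.94). *Lrig1* was with *Krt79* in 16 cells against 21.3 expected, a ratio of 0.753 (0.430 to 1.22), the only pair with *Krt79* below 1 in that library, and its interval includes 1.

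Cells with 3 or 4 members at once also outnumbered those that independent detection would give, but were few in the controls, and no interval was taken. In the cKO-labelled library, 18.7% of cells had none of the 5, against 52.3% and 40.1% in the controls. Cells with none numbered 766, 641 and 479, and these too were above the 755, 614 and 377 expected. Exactly 3 members were found in 10, 20 and 272 cells, and 4 in 2, 2 and 21. At equal depth, 5.63, 10.3 and 188 cells with 3, and 0.0577, 0.139 and 8.61 with 4, were expected. Exactly 2 members were found in 107, 160 and 723 cells, against 111, 158 and 825 expected. No cell had all 5. Cells that share a library share its free RNA and its barcodes, so these ratios describe the libraries.

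**Figure D5:**
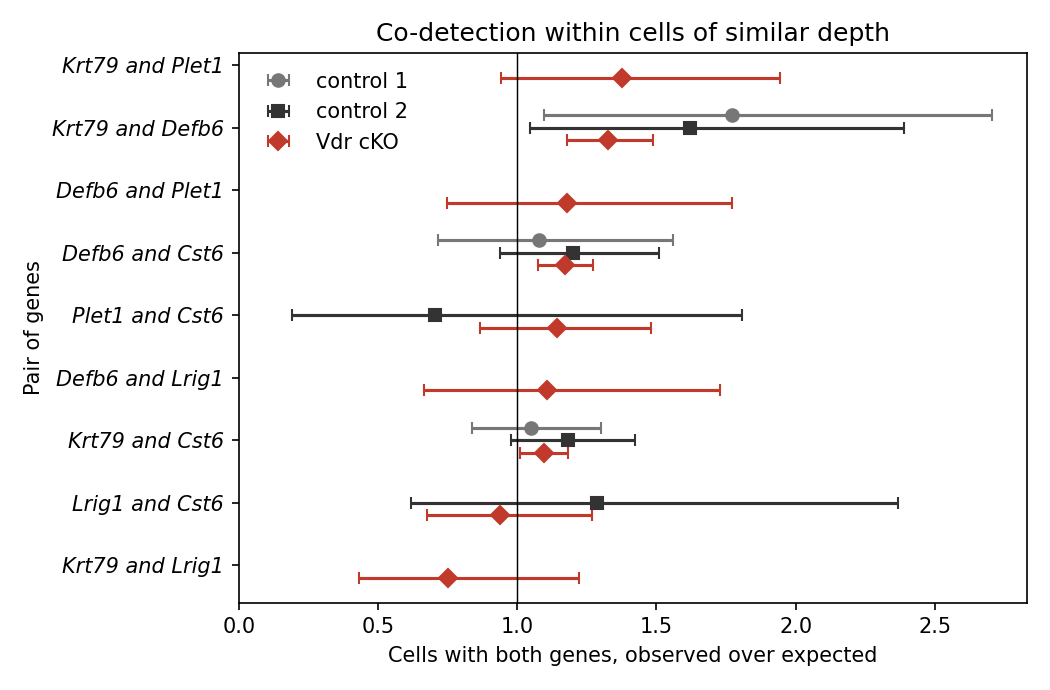
Cells with both genes of a pair, observed over expected at equal depth (horizontal axis), for pairs with at least 5 expected cells in that library. Points are libraries, bars exact 95% Poisson intervals of the observed number, and the line marks 1. *Krt79* with *Defb6* lies above 1 in all 3 libraries.

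The genes with the highest co-detection ratios, which are not those found together in the most cells, differed from member to member. By the lowest of its 3 ratios, *Krt79* was nearest to *Paqr7*, a membrane progestin receptor, at 1.70, to *Cidea*, a lipid droplet protein, at 1.58, and to *Far2*, which makes fatty alcohols for wax, at 1.55, among 2427 genes whose median was 0.870. *Defb6* was nearest to *Krt79* itself at 1.33, then to *Fa2h*, which hydroxylates fatty acids, at 1.22 and the transcription factor *Cebpb* at 1.19, among 759 genes. *Cst6* was nearest to *Med9* at 1.33, *Dnase1l2*, a DNase of cornifying keratinocytes, at 1.22, and *Lsm7* at 1.21, among 5130 genes. Of 36 and 22 genes with enough cells, *Plet1* was nearest to *Apoe* at 1.07, *mt-Rnr2* at 1.01 and *Dmkn* at 1.01, and *Lrig1* to *Perp* at 0.993, *Krtdap* at 0.991 and *Krt10* at 0.984. None of these last 6 stood far from 1, and the counts of *Plet1* and *Lrig1* were too sparse to place them. All named genes have the highest of many ratios, no interval is given here, and some rest on few cells. *Cst6* was with *Med9* in 12, 18 and 32 cells, against 7.42, 13.1 and 24.0 expected. *Defb6* was with *Fa2h* in 12, 12 and 47 cells, against 9.59, 6.77 and 38.5 expected.

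Cells were next placed in 5 equal groups by their share of *Lor*, the loricrin of the cornified layer. These groups are ranges of *Lor* and not layers. *Krt10* was at 38098 and 36397 CPM in the lowest group of the controls, against 23552 and 19233 CPM in the highest. In the cKO-labelled library it was at 19584 against 26354 CPM. The lowest group was also the deepest, with medians of 11730.5, 18458.5 and 7258 counts, against 3695, 3950 and 4231.5 in the highest. *Krt79* in the cKO-labelled library was at 1003 CPM in the lowest group, 819, 661 and 762 CPM in the next ones and 546 CPM in the highest. Control 1 was at 291, 251, 333, 426 and 175 CPM and control 2 at 350, 325, 191, 126 and 102 CPM in the same order. The *Krt79* level in the cKO-labelled library was thus above both controls in each group, and over 2-fold above both in 3.

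*Defb6* in the cKO-labelled library was at 566, 429, 353, 581 and 305 CPM from the lowest to the highest *Lor* group. It was at 14.9, 66.6, 67.6, 93.6 and 17.1 CPM in control 1 and 27.0, 219, 54.6, 79.6 and 87.8 CPM in control 2. *Defb6* and *Plet1* were also above both controls in 5 of 5 groups, as were 9.16% of the genes tested, *Cst6* in 4 and *Lrig1* in 2. By the thinned share of cells, all 5 members were above both controls in 5 of 5, as were 23.0% of the genes tested. When cells were ordered instead by the other differentiation genes (*Krt1*, *Krt10*, *Krtdap*, *Sbsn*, *Dmkn*), the log2 difference of the highest from the lowest group was -3.60, -4.72 and -1.80 for *Krt79* and -2.22, -5.38 and -1.46 for *Defb6*. In control 2 the *Krt79* level of the lowest of these groups, 1619 CPM, was above the 1132 CPM of the cKO-labelled library, so that only 4 of 5 groups were higher there.

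Among 8 other genes of the upper follicle, chosen with earlier results of these data known, 3 reached 50 CPM. Of these 3, 1 was over 2-fold above both controls and 0 below, where 3.88% and 1.15% of all genes tested were. The 1 above was *Krt17*, a keratin of HF and stressed epidermis, at 627, 764 and 2082 CPM. *Gata6*, a transcription factor of the junctional zone and sebaceous duct, was at 0.745, 6.24 and 38.8 CPM, the protease gene *Klk10* at 1.60, 2.02 and 45.7 CPM, and *Lgr6*, an isthmus stem cell receptor, at 1.70, 1.43 and 12.9 CPM. These 3 were below 50 CPM in each library and highest in the cKO-labelled library. Over all genes this lean grew as the filter on the level was lowered. Of called genes, 77.2% were higher from 50 CPM, 84.7% from 10 CPM and 89.6% without a filter. The median difference of the 8 was 2.01 on the log2 scale over the control mean, and *Atp6v1c2* was at 206, 360 and 246 CPM.

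Cells with 3 or more of these 8 genes numbered 21, 38 and 369. In the cKO-labelled library they held *Defb6* at 578 CPM against 342 CPM in other cells, *Krt79* at 866 against 688 CPM and *Plet1* at 80.1 against 36.8 CPM. *Lrig1* was not higher in them, at 25.8 against 33.4 CPM. In control 1 *Krt79* was lower in such cells, at 109 against 290 CPM, and in control 2 at 182 against 263 CPM. The cells of the cKO-labelled library in this group had a median of 17232 counts against 3622 outside it.

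Of 17 relatives and targets of the members, 14 were listed and 12 reached 50 CPM. Of these 12, 0 were over 2-fold above both controls, where 3.88% of all genes tested were. With so few genes, 0 cannot be told from that share. In the other direction, 1 was over 2-fold below both, where 1.15% of all genes were. That was *Krt78*, a keratin of differentiated epidermis, at 557, 609 and 277 CPM. The cystatin genes *Cst3* and *Cstb*, like *Cst6* inhibitors of cysteine proteases, differed by 0.07 and 0.44 on the log2 scale over the control mean, and *Ctsl* and *Lgmn*, targets of cystatin M/E, by 0.09 and 0.37. The other defensin listed, *Defb1*, differed by -0.30. *Lrig3* differed by 0.29 and *Egfr*, whose signalling *Lrig1* lowers, by 0.33. The median of the 14 was 0.11.

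Markers of other epithelial cells differed between libraries as well. Of 7 basal keratinocyte genes 5 reached 50 CPM, and 4 of these were over 2-fold above both controls in the cKO-labelled library. The summed level of the list was 1934, 1301 and 5632 CPM. Of 7 bulge genes 3 reached 50 CPM and all 3 were over 2-fold above both controls, with a sum of 3044, 2167 and 7978 CPM. Of all genes tested, 3.88% were. A gene that reached 50 CPM only in the cKO-labelled library had to be highest there to be counted. The inner root sheath genes summed to 0.585, 2.54 and 235 CPM, with *Krt71*, *Krt25* and *Krt73* at 0 in both controls. The companion layer genes summed to 60.5, 49.1 and 278 CPM. The sebaceous genes went from 3554 and 1741 to 1877 CPM, with 0 of 8 higher and 1 lower, and the differentiated epidermis genes from 96454 and 108821 to 72117 CPM. Antigen-presenting cell genes summed to 173, 251 and 333 CPM, T cell genes to 32.7, 20.5 and 70.5 CPM, cycling genes to 358, 331 and 548 CPM and red cell genes to 104, 463 and 62.5 CPM. Cells with 3 or more of the basal keratinocyte genes made up 9.46%, 11.8% and 58.8% of the libraries. *Krt79* was at 314, 299 and 791 CPM in them and 277, 245 and 654 CPM in the others. *Defb6*, *Plet1* and *Cst6* were also highest in the cKO-labelled library in either group. *Lrig1* was not, at 5.37, 37.1 and 33.7 CPM inside and 23.3, 15.1 and 14.6 CPM outside. The part of these markers in the levels of the members was not tested. More cells of a kind cannot be told apart from more RNA per cell in a pooled level.

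Small groups of cells with other markers held *Krt79* at high levels in the cKO-labelled library. It was at 1273 CPM in 32 cells with 3 or more companion layer genes, 1053 CPM in 17 cells with inner root sheath genes and 1493 CPM in 30 cells with T cell genes, and at 919 CPM in 270 cells with bulge genes. *Defb6* was at 342, 140, 290 and 623 CPM in the same groups, so only the bulge group was above the 445 CPM of all cells. The T cell group should lack both genes, its median depth was 13899 counts against 4010 outside it, and whether its barcodes hold more than 1 cell was not tested.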

How the data were processed

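The authors counted reads per gene and cell barcode from RNAdia droplet libraries of P18 dorsal skin and deposited raw counts without normalization, as 1 matrix for each of 3 libraries (2 controls, 1 labelled *Vdr* cKO). The build is mm10 per the labels. For alignment the study's methods name only Seurat, an analysis package that does not map reads. A read aligner, the annotation and whether molecules were collapsed are not given in the sources used here. Of the nonzero entries in the cells kept here, 14.5%, 22.2% and 26.9% equal 1, so counts may include copies made by PCR.

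Barcodes were kept as cells from 200 detected genes up, if mitochondrial counts made up no more than 20%. CPM was the sum over the cells of a library divided by its total, and 1 CPM was added before log2. Genes of at least 50 CPM in a library were compared. A gene was higher or lower when over 2-fold from both controls. Shares of cells used cells thinned to 1000 counts (seed 1). Co-detection used 10 depth groups. A gate was a group of cells with at least 3 detected genes of a marker list. Doublets were not called, and leaving out the 5% of cells with the most counts stands beside this. Cells are not replicates, so no p-value was computed.

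Named genes are the 5 members, the listed upper follicle genes, relatives, markers and *Vdr*, and for each member the 3 genes of highest co-detection ratio among those with at least 5 expected joint cells in every library. The members and lists were chosen with earlier results of these data known. The values of 1 listed upper follicle gene are not reported here. Promoters are from RefSeq (GRCm38.p6) and matched 4 of 5 members, and positions are from GENCODE M21 of GRCm38. Alternatives changed the filter on cells, the scaling, the pseudocount, the thinning, the gene filter and the controls used. Scripts, checked on simulated counts, ran in Python 3.11.15 with pandas 2.3.3, scipy 1.17.1 and numpy 2.4.6, and library factors came from edgeR 4.0.16 and DESeq2 1.42.0 in R 4.3.3. Plots were drawn with matplotlib 3.10.9.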

Additional observations from a re-analysis of the deposited data

Results flagged for a closer look

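*Krt79* was also counted in the barcodes not taken as cells, nearly all for too few genes. These barcodes were not part of the main comparisons, but entered the ratio of *Krt79* to *Defb6* counts and the alternative with all deposited barcodes. In the cKO-labelled library *Krt79* stood at 746 CPM (603 to 913) in 160 such barcodes, near the 765 CPM of its cells. In the controls it stood at 489 and 480 CPM in 1308 and 802 such barcodes, above the 283 and 257 CPM of their cells. *Defb6* in the same barcodes was at 166, 207 and 317 CPM.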

How the results depend on the processing

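The log2 differences over the control mean kept their sign in all alternatives for *Krt79*, *Defb6*, *Plet1* and *Lrig1*. *Krt79* was at 1.78 with at least 500 detected genes, 1.21 without the 5% of cells with the most counts, 1.32 with TMM factors, 1.29 with median-of-ratios factors, 0.62 with each gene counted once per cell and 0.95 as the mean of the CPM of each cell, and it was over 2-fold above both controls in neither of these last 2 nor without the 5% of cells. *Defb6* was at 1.48 once per cell and 1.74 as the mean of cells, where *Plet1* was not over 2-fold above both. *Lrig1* was at 0.75 and 0.82 with at least 300 and 500 genes, 0.38 and 0.35 with TMM and median-of-ratios factors, 0.51 with a total without the 20 most abundant and mitochondrial genes, 1.09 once per cell, 0.091 as the mean of cells and 0.41 with 10 CPM added. *Cst6* reversed to -0.034 once per cell. The cause of these shifts was not tested.

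Leaving out a control gave 1.43 to 1.57 for *Krt79*, 2.38 to 3.60 for *Defb6*, 1.81 to 3.45 for *Plet1*, 0.53 to 0.57 for *Lrig1* and 0.67 to 1.83 for *Cst6*, which was over 2-fold higher without control 2, and 244 to 272 genes over 2-fold above and 86 to 145 below. Genes above and below numbered 107 and 86 with TMM factors, 100 and 96 with median-of-ratios factors, 702 and 127 from 10 CPM and 1874 and 218 without a filter, and 71 were below by the mean of cells.

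The share of cells over the control mean was 3.83, 3.72 and 4.51 for *Plet1* and 2.52 and 2.30 for *Lrig1* at 500 counts, 2000 counts and, for *Plet1*, no thinning. It was 4.50 and 1.73 for these genes with at least 500 detected genes, and for *Plet1* 2.84 without the 5% of cells and 3.24 without shared barcodes. Co-detection of *Krt79* and *Defb6* in the cKO-labelled library was 1.15 and of *Defb6* and *Cst6* 1.04 without thinning, and that of *Krt79* and *Defb6* in control 1 was 1.01 with at least 500 genes. Ordering cells by the other differentiation genes turned the sign from the lowest to the highest group for *Defb6* in both controls (-2.22 and -5.38) and in control 2 for *Plet1* (-0.062), *Lrig1* (-0.70) and *Cst6* (-0.85).

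No paired analysis was possible because the groups share only replicate number 1, there is 1 *Vdr* cKO library and no test was run. Depth limits *Plet1* and *Lrig1* most, with 10 and 8 thinned cells in control 1.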
